A study of Mus musculus with 18 samples.

Results

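The 31 genes described here encode the enzymes of cholesterol and fatty acid synthesis and the SREBP factors that control them. They were taken by symbol from a written list of the pathway's genes, and all 31 were found among the 24493 genes of the deposited table. They comprise 8 early and 10 late steps of sterol synthesis, 6 genes of SREBP control and 7 genes of fatty acid synthesis. RNA was sequenced from tumor cells of the mouse pancreatic lines 6419c5 and 6694c2, grown under the skin as implants and sorted, with the strain given as C57BL/6 and no treatment for all samples. Each line had unmodified cells (WT) and 2 knockout clones of Kdm3a, a histone demethylase gene, named clone A and clone B after the columns of the table (taken as KO1 and KO2 of the sample titles). The 18 libraries form 6 groups of 3. A knockout group is 1 clone, and nothing in the labels says whether the libraries within a group represent separate animals, so the p-values measure the spread between these libraries. Sort marker, knockout method and age are not in the labels.

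Cells make cholesterol from acetyl-CoA by the mevalonate route, which first builds squalene and then closes and trims it into the sterol ring. Fatty acid synthesis draws on the same acetyl-CoA. Both sets of enzymes are transcribed under the SREBP factors, which are held in the endoplasmic reticulum by Scap and the Insig proteins while sterol is plentiful and are released to the nucleus when it is scarce. Srebf2 encodes the form that mainly drives sterol genes, Srebf1 the form that mainly drives fatty acid genes, and Srebf2 is itself a target of the pathway. Tumor cells in general rely on this route for membranes.

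Promoters of 25 of the 31 genes were found among the RefSeq sequences of build GRCm38.p6, as 33 windows of 300 bases about listed start sites. Some genes had several windows, and a motif in any of them counted. The only window of Acaca, at chr11:84195188-84195487, lay inside the gene, which starts at 84129672, and held none of the motifs given below. The sequences of Hmgcs1, the enzyme that makes HMG-CoA at the head of the mevalonate route, and of Fasn, the fatty acid synthase, are shown because both genes were lower in the 6694c2 knockouts and they stand for the sterol and the fatty acid arm. The 250 bases before the start are given on the strand of the gene, at chr13:119690101-119690350 for Hmgcs1 (plus strand) and chr11:120824548-120824797 for Fasn (minus strand). Capitals mark the sterol regulatory element letters TCACNCCAC and the NF-Y letters CCAAT, read on either strand.
Hmgcs1: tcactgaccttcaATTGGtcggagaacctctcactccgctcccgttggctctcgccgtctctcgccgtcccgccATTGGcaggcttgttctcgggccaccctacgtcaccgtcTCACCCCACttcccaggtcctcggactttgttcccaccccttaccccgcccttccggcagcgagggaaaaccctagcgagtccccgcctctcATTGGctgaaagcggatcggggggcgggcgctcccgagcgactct
Fasn: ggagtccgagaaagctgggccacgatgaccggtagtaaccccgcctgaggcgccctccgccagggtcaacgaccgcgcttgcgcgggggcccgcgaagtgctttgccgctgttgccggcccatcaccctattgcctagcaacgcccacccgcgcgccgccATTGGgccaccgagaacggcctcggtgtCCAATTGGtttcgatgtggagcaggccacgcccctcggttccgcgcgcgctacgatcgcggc
In Hmgcs1 the sterol element letters begin at -137 from the start, between reversed NF-Y letters at -176 and -45. In Fasn a forward and a reversed NF-Y match overlap, beginning at -62 and -59, and a further one lies at -90. Hmgcs1 was the 1 gene of the 25 with the exact sterol element letters in its window (4.0%, against 1.44% of the 27025 genes of the promoter table). The NF-Y letters were in a window of 21 of the 25 (84.0%, against 41.06% of all genes), and the Sp1 letters GGGCGG also in 21 of the 25 (84.0%, against 38.2%). The E-box letters CACGTG were in 5 of the 25 (20%, against 8.09%). All motifs were searched on both strands. The genes not matched were Sqle, Fdps, Fdft1, Scd1, Scd2 and Stard4.

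Levels are in TPM, a transcript abundance whose total is fixed in each library, and hold no read depth. From 12213 to 13590 genes per library reached 1 TPM. Kdm3a, the targeted gene, was at 31.7 ± 7.13 TPM (SD, n = 3) in 6419c5 WT, against 22.6 ± 1.72 for its clone A and 14.9 ± 3.49 for its clone B. In 6694c2 it was at 48.8 ± 16.3, 27.5 ± 2.02 and 28.1 ± 2.56 TPM in the same order. Its transcript remained present in all knockout libraries, and in 6419c5 clone A its change of -0.45 did not pass (limma adjusted p = 0.299), while the other 3 clones were called lower. Keratin and adhesion genes of ductal tumor cells (6 markers) summed to between 5379 and 12183 TPM per library, and none was at 0 throughout a group. The 7 markers of fat cells, which make fatty acids and lie beside a subcutaneous implant, summed to 1.96 to 10.3 TPM, with Lep at 0 in all libraries of 4 groups. Markers of other cells were present: 10 macrophage genes summed to between 295 and 8431 TPM. In the paragraphs that follow, a change is a difference of log2(TPM + 1), which understates the change of genes at low TPM, and called means a limma adjusted p under 0.05 over the 13422 genes tested. All 31 genes passed the filter of a mean of at least 1 TPM.

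In 6694c2 the knockouts had lower levels of sterol synthesis genes, of Srebf2 and of Fasn than WT, and the fall was mostly that of clone A. For the mean of both clones against WT, 8 of the 31 genes were called lower (25.8%, against 5.79% of all genes tested) and 0 higher (against 14.7%). The 31 changes had a median of -0.24, beside 0.15 over all genes tested, and 27 were negative. In 6419c5 no gene of the 31 was called lower (3.40% of all genes were) and none higher (3.97%). At an unadjusted p under 0.05 the 6419c5 counts were 0 lower and 1 higher, a threshold at which all genes were not counted. The median was 0.06, beside 0.01 over all genes. The 6694c2 count of 8 was 3 without its WT replicate 1 and 6 to 12 without any other of its libraries. Beside these, 617 and 579 to 790 of all 13422 genes were called lower. No count tool could be run on TPM.

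Of the early steps of sterol synthesis, 4 of 8 were called lower in 6694c2. Hmgcs1 was at 75.7, 63.8 and 111 TPM in the 6694c2 WT libraries, at 53.0, 38.4 and 37.4 for clone A and at 70.7, 74.4 and 64.6 for clone B. All clone A libraries lay below all WT libraries, and all clone B libraries lay within the WT range. In 6419c5 it was at 56.6, 34.5 and 35.6 TPM in WT, 46.5, 35.0 and 37.4 for clone A and 49.9, 61.2 and 50.5 for clone B, and each clone overlapped WT. Hmgcs1 fell by 0.57 over both 6694c2 clones (SE 0.19, limma adjusted p = 0.0420), a call that was lost without WT replicate 3, the highest library (-0.35, limma adjusted p = 0.179), and in 7 of the 9 fits that left out 1 library of the line. Pmvk, the phosphomevalonate kinase, was at 37.0, 40.6 and 23.6 TPM in 6694c2 WT, 22.4, 21.4 and 20.9 for clone A and 22.7, 24.4 and 24.2 for clone B. The knockout libraries differed little from each other, while WT replicate 3 lay among those of clone B. In 6419c5 Pmvk was at 29.2, 30.2 and 34.9 TPM in WT, 38.7, 41.3 and 36.4 for clone A and 24.7, 28.2 and 29.9 for clone B, so that there clone A lay above WT. The fall of Pmvk in 6694c2 was 0.52 (SE 0.13, adjusted p = 0.0117), and the call was lost without WT replicate 2 (-0.37, limma adjusted p = 0.0754) or WT replicate 1 (-0.44, adjusted p = 0.0601).

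Fdps, which makes farnesyl diphosphate, the last intermediate shared with protein prenylation, was the most abundant sterol enzyme transcript of the set. It was at 336, 305 and 247 TPM in 6694c2 WT, 212, 147 and 149.9 for clone A and 244, 251 and 239 for clone B. Clone A lay below WT in all 3 libraries, and clone B overlapped the lowest WT library. In 6419c5 it stood at 211, 205 and 208 TPM in WT, 273, 183 and 202 for clone A and 239.5, 209 and 234 for clone B, with no common direction. Fdps fell by 0.53 in 6694c2 (SE 0.13, limma adjusted p = 0.0120). Fdft1, the squalene synthase that commits the route to sterols (chromosome 14, 63145150 to 63179578, minus strand, mm10), was at 53.7, 49.4 and 45.1 TPM in 6694c2 WT. Its knockout libraries had 37.3, 30.3 and 30.2 TPM for clone A and 44.4, 42.4 and 40.8 for clone B, all below WT. In 6419c5 Fdft1 was far lower, at 19.9, 18.7 and 18.4 TPM in WT, 25.6, 17.8 and 18.5 for clone A and 23.4, 20.7 and 22.2 for clone B. There clone B lay above all WT libraries. Fdft1 fell by 0.40 in 6694c2 (SE 0.11, limma adjusted p = 0.0165) and stood at 0.15 in 6419c5 (adjusted p = 0.514). The difference between the lines was -0.55 (SE 0.15, limma adjusted p = 0.0349). Without 6694c2 WT replicate 1 the calls of Fdps (-0.44, adjusted p = 0.0635) and Fdft1 (-0.34, limma adjusted p = 0.0758) were lost, and without WT replicate 2 that of Fdft1 (adjusted p = 0.0511).

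The other 4 early genes were not called in the knockouts of either line. Group means ran from 33.7 to 50.0 TPM for Acat2, an acetyl-CoA acetyltransferase whose reads may be shared with its near copy Acat3, and from 22.4 to 34.3 TPM for Mvk, the mevalonate kinase. Mvd, which makes isopentenyl diphosphate, ranged from 28.0 to 39.9 TPM. Idi1, its isomerase, had the widest spread, with group means of 17.6 to 42.9 TPM and WT libraries of 6694c2 at 36.9, 19.8 and 71.9 TPM. Its change of -0.65 in 6694c2 carried an SE of 0.38 (limma adjusted p = 0.246).

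Of the 10 late steps, which turn squalene into cholesterol, 2 were called lower in 6694c2. Dhcr7, which performs the final reduction of 7-dehydrocholesterol (chromosome 7, 143823145 to 143848410, plus strand), was the most uniform. It was at 23.9, 23.6 and 21.0 TPM in 6694c2 WT, 17.9, 13.5 and 13.4 for clone A and 16.0, 15.1 and 17.4 for clone B. All 6 knockout libraries lay below all WT libraries, and the clones overlapped each other. In 6419c5 Dhcr7 was at 27.1, 25.9 and 28.4 TPM in WT, 23.0, 28.2 and 29.2 for clone A and 23.0, 24.0 and 22.4 for clone B, the last below WT in every library. The change was -0.53 in 6694c2 (SE 0.10, limma adjusted p = 0.00187) and -0.12 in 6419c5 (adjusted p = 0.605). Tm7sf2, a sterol C14 reductase, was at 39.0, 30.5 and 25.2 TPM in 6694c2 WT, 22.5, 16.8 and 17.8 for clone A and 21.9, 26.1 and 25.9 for clone B. Clone A lay below WT and clone B overlapped it. In 6419c5 its libraries were at 20, 15.1 and 22.5 TPM in WT, 17.4, 22.4 and 21.8 for clone A and 17.7, 19.8 and 18.1 for clone B. Tm7sf2 fell by 0.51 in 6694c2 (SE 0.15, limma adjusted p = 0.0260), and the call was lost without WT replicate 1 (-0.35, limma adjusted p = 0.141) and also without WT replicate 2, clone A replicate 2 or clone B replicate 1. Dhcr7 kept its call without any 1 library of the line.

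The remaining 8 late enzymes were not called for the mean of the clones in either line. Sqle, the squalene epoxidase and a slow step of the route, had group means of 56.6 to 113 TPM, lowest in 6419c5 clone A and highest in 6694c2 clone B. Lss, which closes the ring, ranged from 10.7 to 14.2 TPM, and the C14 demethylase Cyp51 from 40.2 to 65.1 TPM. Msmo1 (66.2 to 121 TPM), Nsdhl (12.3 to 20.1 TPM) and Hsd17b7 (3.80 to 6.65 TPM), which remove the C4 methyl groups, and the desaturase Sc5d (18.4 to 28.2 TPM) had their highest group mean in 6694c2 clone B, apart from Hsd17b7, highest in 6419c5 clone A. Ebp, a sterol isomerase, ranged from 57.4 to 69.8 TPM and was the late gene with a positive change in both 6694c2 clones (0.22 and 0.26, neither called).

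Among the control genes, Srebf2 had the change with the lowest adjusted p of the 31 in 6694c2 (chromosome 15, 82147181 to 82205379, plus strand). It was at 217, 214 and 199 TPM in WT, 138, 119.5 and 108 for clone A and 199.8, 193 and 167 for clone B. Clone A stood well below WT, and clone B lay just below it with 1 library at the lowest WT level. In 6419c5 it was at 147, 165 and 137 TPM in WT, 148, 136 and 146 for clone A and 159, 141 and 147 for clone B, with full overlap. The change was -0.48 in 6694c2 (SE 0.09, limma adjusted p = 0.00129) and -0.03 in 6419c5 (adjusted p = 0.936), and the difference between the lines was -0.45 (SE 0.12, limma adjusted p = 0.0322). Srebf1 was at 96.1, 107 and 89.4 TPM in 6694c2 WT, 88.1, 81.2 and 74.3 for clone A and 86.7, 87.2 and 91.7 for clone B. In 6419c5 it was at 86.6, 98.4 and 87.1 TPM in WT, 91.2, 94.7 and 92.0 for clone A and 107, 94.6 and 101 for clone B. Its group means thus spanned 81.2 to 101 TPM only, and the change of -0.20 in 6694c2 did not pass (limma adjusted p = 0.0661). Gene totals do not separate the Srebf1 isoforms.

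Of the other control genes, Insig1, a retention factor that is itself an SREBP target, had group means of 39.2 TPM in 6419c5 clone A to 72.5 TPM in 6694c2 WT. Its partner Insig2 ranged from 20 to 25.0 TPM, with a change of 0.26 in 6694c2 (limma adjusted p = 0.350). Scap, the escort protein of the SREBP factors, ranged from 34.7 to 47.9 TPM, and Stard4, a carrier of cholesterol between membranes, from 13.6 to 34.1 TPM. None of these 4 was called for the mean of the clones in either line.

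Of the 7 fatty acid genes, Fasn was called lower in 6694c2. It was at 103, 99.4 and 106 TPM in WT, 73.9, 73.7 and 66.2 for clone A and 85.4, 88.7 and 78.5 for clone B. The 3 groups did not overlap, with clone B between WT and clone A. In 6419c5 all Fasn libraries lay below all those of 6694c2, at 54.3, 58.8 and 45.5 TPM in WT, 65.0, 49.5 and 58.2 for clone A and 52.5, 45.1 and 57.5 for clone B. The change was -0.41 in 6694c2 (SE 0.10, limma adjusted p = 0.0100) and 0.05 in 6419c5 (adjusted p = 0.893), and the difference between the lines did not pass for Fasn.

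Scd1 and Scd2 are desaturases that place the double bond of oleate, and near copies whose reads may not be fully separated. Scd1 was at 53.8, 45.5 and 67.7 TPM in 6694c2 WT, 57.8, 40.9 and 38.3 for clone A and 63.4, 64.1 and 67.4 for clone B. In 6419c5 it was at 21.3, 15.0 and 14.4 TPM in WT, 23.4, 11.0 and 14.9 for clone A and 23.2, 28.8 and 21.4 for clone B. The lines differed far more than the clones within them. Scd2, the more abundant copy, was at 499, 417 and 548 TPM in 6694c2 WT, 368, 353 and 329 for clone A and 464, 456 and 494 for clone B. Clone A lay below WT and clone B within its range. In 6419c5 it was at 238, 194 and 209 TPM in WT, 269, 184 and 204 for clone A and 305, 294 and 311 for clone B, which lay above all other libraries of that line. Scd2 had changes of -0.26 in 6694c2 (limma adjusted p = 0.107) and 0.27 in 6419c5 (adjusted p = 0.181), neither called, and their difference of -0.52 passed its own test (SE 0.15, limma adjusted p = 0.0485).

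The other fatty acid genes were not called for the mean of the clones. Acaca, the acetyl-CoA carboxylase, ranged over group means of 11.7 to 20.3 TPM. Acly, which makes cytosolic acetyl-CoA from citrate, ranged from 101 to 131 TPM, and Acss2, which makes it from acetate, from 4.74 to 10.7 TPM. Elovl6, which lengthens palmitate, ranged from 6.62 TPM in 6694c2 clone A to 17.9 TPM in 6419c5 clone B. In all, 3 of the 31 genes, Fdft1, Srebf2 and Scd2, were called lower for the knockout effect in 6694c2 minus that in 6419c5 (2.93% of all genes were) and 0 higher (5.78%), with 29 of 31 differences negative and a median of -0.29 beside 0.14 over all genes. The calls on this difference were sensitive to single libraries: 0 remained without 6419c5 WT replicate 3, without 6419c5 clone B replicate 1 or 3, without 6694c2 WT replicate 1 or without 6694c2 clone A replicate 2, and 1 to 5 were called without any other library. Over all 13422 genes 228 to 470 were called lower in these fits.

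**Figure D1:**
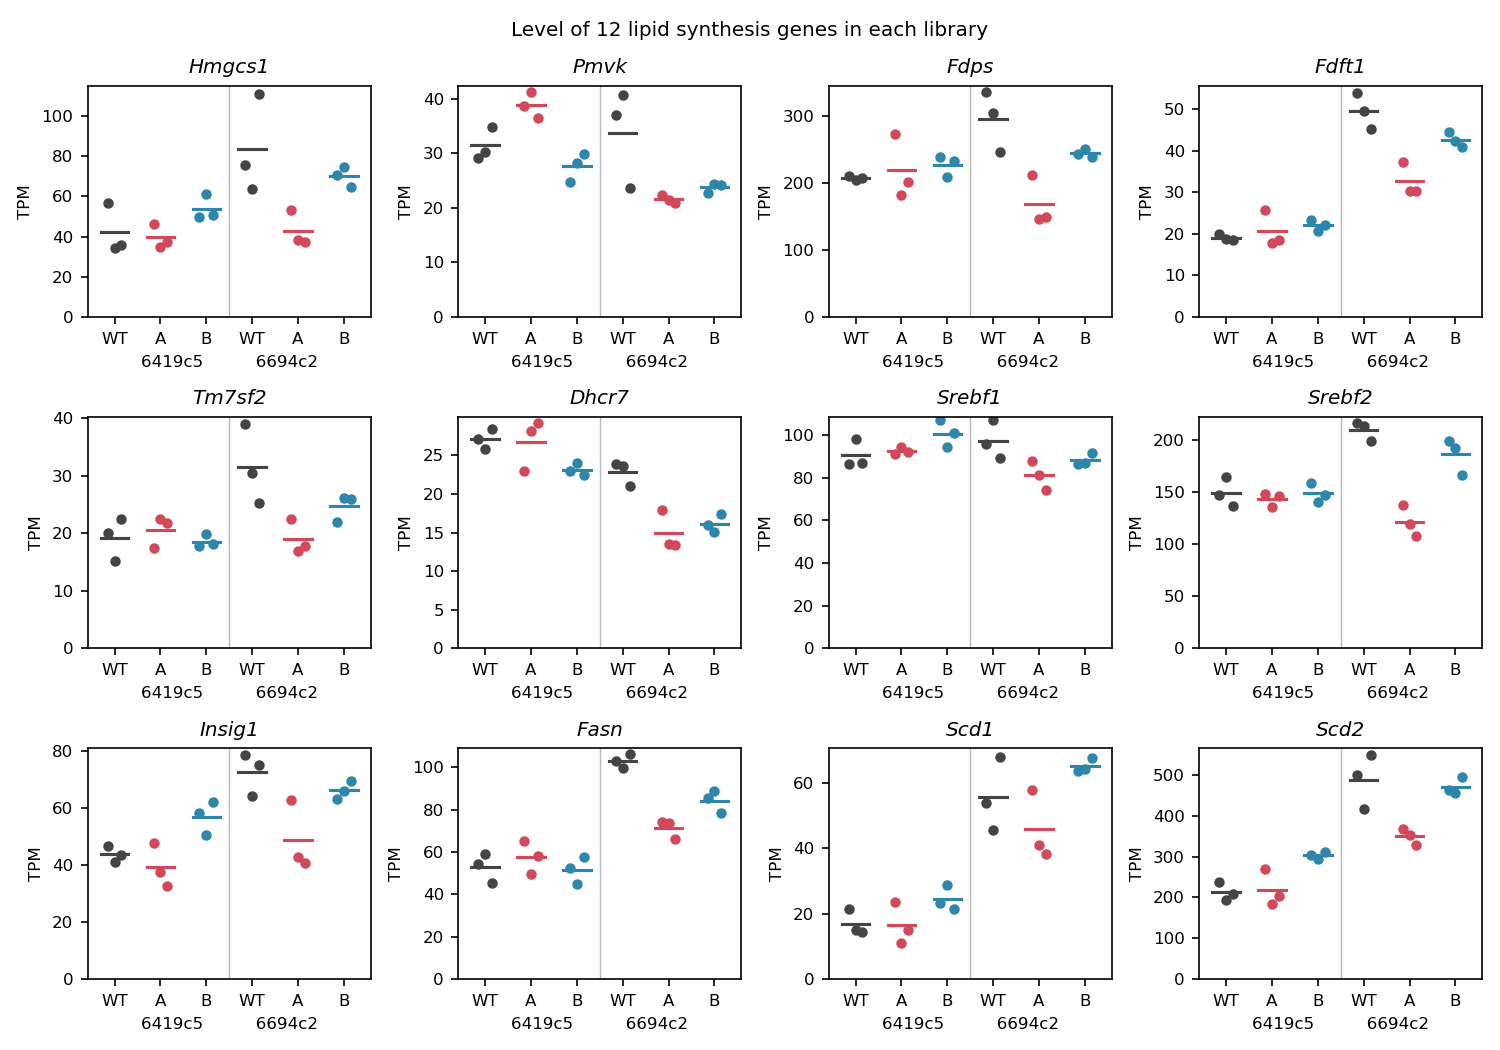
Each panel plots the TPM (vertical axis, from 0) of 1 gene in each of the 18 libraries, as points for WT (dark grey), clone A (red) and clone B (blue) of both lines, with a bar at each group mean. The panels hold the 8 genes called lower in the 6694c2 knockouts, with Srebf1, Insig1, Scd1 and Scd2. In 6694c2 all clone A points lie below all WT points in every panel but that of Scd1, narrowly for Srebf1, Insig1 and Pmvk. This partly follows from the choice of genes: of the members not drawn, the same held for Sqle and Scap only. Such separation was not counted over all genes. Among the panels drawn, all clone B points lie below all WT points for Fdft1, Dhcr7 and Fasn only. Of the members not drawn, the same held for Scap and, narrowly, Mvd.

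The clones of 6694c2 differed from each other. In clone A 13 of the 31 genes were called lower (41.9%, against 7.01% of all genes) and 0 higher (14.7%), with a median of -0.47 beside 0.11 over all genes. They were the early enzymes Hmgcs1 (-0.92), Fdps (-0.81), Pmvk (-0.59) and Fdft1 (-0.59), the late enzymes Tm7sf2 (-0.69), Sqle (-0.60) and Dhcr7 (-0.59), the control genes Srebf2 (-0.79, SE 0.10, limma adjusted p = 7.18e-05), Insig1 (-0.59) and Srebf1 (-0.26), and the fatty acid genes Elovl6 (-0.74), Fasn (-0.53) and Scd2 (-0.47). In clone B only Dhcr7 was called lower (-0.47, SE 0.12, limma adjusted p = 0.0133), 1 of 31 (3.94% of all genes were), and 0 were higher (10.6%). Its median was -0.12, beside 0.18 over all genes, and 18 of the 31 changes were negative. The clones share their WT libraries, so the comparison without WT is the direct one. Clone B against clone A gave 6 of 31 higher (5.27% of all genes were) and 0 lower (4.26%): Stard4 (0.93), Sqle (0.79), Cyp51 (0.69), Srebf2 (0.62), Fdps (0.55) and Scd2 (0.43). This count was 1 without clone A replicate 3 or clone B replicate 1 or 2, 2 without clone A replicate 2, 3 without clone B replicate 3 and 11 without clone A replicate 1. Over all 13422 genes 177 to 848 were called higher in these fits. With median-of-ratios scaling Fdps (0.49, limma adjusted p = 0.0997) and Scd2 (0.38, limma adjusted p = 0.0611) lost their call in clone B against clone A. Scd2 kept that call in 3 of 17 alternatives and in 0 of the 6 fits without 1 library. The count of 13 in clone A against WT was 8 without its replicate 3, beside 594 lower of all genes. The calls of Hmgcs1, Fdps, Fdft1, Tm7sf2, Dhcr7, Srebf2 and Fasn in clone A held without any 1 library of the comparison. Those of Pmvk, Sqle, Insig1, Srebf1, Scd2 and Elovl6 were each lost without at least 1. The call of Dhcr7 in clone B was lost without clone B replicate 2 (-0.43, limma adjusted p = 0.0638). Without WT replicate 3, 3 members were called lower there, beside 620 of all genes.

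In 6419c5 clone A had 0 of 31 called lower (1.65% of all genes were) and 0 higher (3.14%), and 0 in either direction at an unadjusted p under 0.05. Clone B had 0 lower (11.0%) and 1 higher (7.97%), Scd2 (0.51, SE 0.13, limma adjusted p = 0.0117). Its median was 0.14, beside 0.00 over all genes, and 3 members were called higher without WT replicate 1 (1014 of all 13422 genes were). At an unadjusted p under 0.05 clone B had 6 genes higher and 0 lower against WT, and 10 higher and 1 lower against clone A. The shares of all genes at that unadjusted threshold were not counted, so these counts have nothing to be judged by. Stard4 was at 0.70 against WT (limma adjusted p = 0.0776) and did not pass. Clone B against clone A had 4 genes higher (7.38% of all genes were), Stard4 (1.10), Sqle (0.62), Insig1 (0.54) and Scd2 (0.48), and 1 lower (18.9%), Pmvk (-0.48). That count of 4 was 8 without clone A replicate 1, 1 without clone A replicate 2 and 2 without clone A replicate 3. Over all genes 998, 648 and 698 were higher in these fits. The call of Pmvk was lost without clone A replicate 1 or 2 or clone B replicate 1 or 2. The 2 clones of each line thus stood in the same order for Stard4, Sqle and Scd2, with clone B higher, although the letters imply no match of clones across lines.

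**Figure D2:**
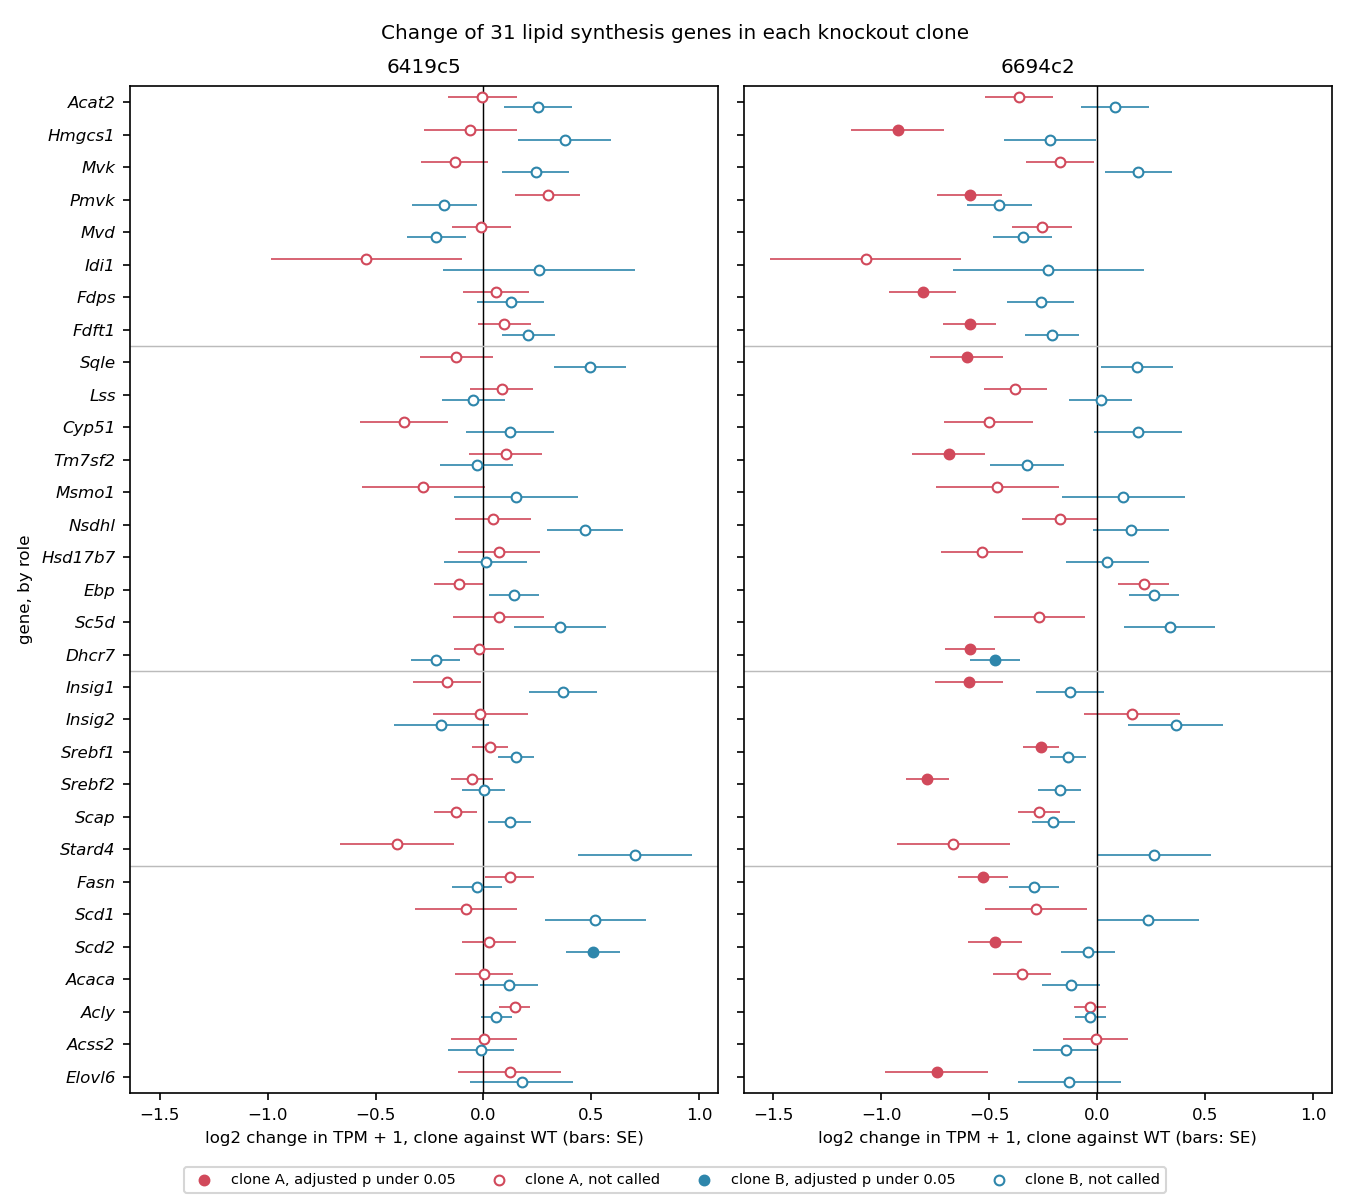
Points show the log2 change in TPM + 1 of each of the 31 genes (vertical axis, grouped by role with grey lines) in clone A (red) and clone B (blue) against WT of 6419c5 (left) and 6694c2 (right), with bars of 1 SE and filled points for a limma adjusted p under 0.05. In 6694c2 13 clone A points are filled, all left of 0, and 1 of clone B, Dhcr7, while in 6419c5 the only filled point is Scd2 in clone B.

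Between the WT groups the members were mostly higher in 6694c2. Of the 31 genes 15 were called higher in 6694c2 WT than in 6419c5 WT (48.4%, against 14.1% of all genes) and 1 lower (32.2%), with a median of 0.37 beside -0.22 over all genes. Fatty acid genes showed the widest gap: Scd1 (1.67), Scd2 (1.18), Fasn (0.96), Acaca (0.73) and Acly (0.37) were higher, and Acss2 was lower (-0.87, SE 0.15, limma adjusted p = 2.67e-04). Of the sterol genes Fdft1 (1.33), Hmgcs1 (0.97), Sqle (0.70), Tm7sf2 (0.68), Nsdhl (0.51), Fdps (0.50) and Acat2 (0.47) were higher, and of the control genes Insig1 (0.71), Srebf2 (0.49) and Scap (0.33). The calls of Acat2, Fdps, Nsdhl and Scap were each lost without at least 1 WT library. Summed over the 18 sterol enzymes, the level was 1058 ± 96.7 TPM (SD, n = 3) for 6694c2 WT, 707 ± 109.7 for clone A and 996 ± 50.6 for clone B. In 6419c5 the sums were 789 ± 84.0, 764 ± 144 and 876 ± 21.7 TPM in the same order. The 6694c2 clone A mean was just within the range of 6419c5 WT, 703 to 871 TPM, with single libraries at 834, 641 and 647 TPM. With median-of-ratios scaling the clone A mean was 711, below the 745 to 791 of 6419c5 WT. The 7 fatty acid genes summed to 815 ± 85.3, 622 ± 50.4 and 782 ± 12.5 TPM in 6694c2 and to 422 ± 31.2, 444 ± 59.6 and 525 ± 8.08 TPM in 6419c5, so all 6694c2 groups stayed above all 6419c5 groups.

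With median-of-ratios scaling of the TPM the direction held for all 8 genes called in the 6694c2 knockouts and all 13 called in its clone A. All of these stayed called, and more joined them. The 6694c2 count became 16 lower of 31, beside 1792 lower of all 13422 genes tested (777 as deposited). The changes were -0.73 for Dhcr7, -0.68 for Srebf2 and -0.61 for Fasn. Of the 31 genes 29 kept their sign, Mvk and Sc5d being the exceptions. Clone A then had 21 lower, beside 1839 of all genes (941 as deposited). Clone B had 6 lower, beside 1111 of all genes (529 as deposited): Pmvk (-0.68), Mvd (-0.57), Tm7sf2 (-0.55), Dhcr7 (-0.69), Scap (-0.43) and Fasn (-0.52). In clone B 8 genes changed sign, none of them called as deposited. The scaling moved the median of all genes in the 6694c2 knockouts from 0.15 to -0.03, and the members' median from -0.24 to -0.42, so that the gap between both medians was nearly the same. In 6419c5 the scaled count was 0 for the mean of the clones, beside 460 lower and 437 higher of all 13422 genes. Clone B had 3 higher, Stard4 (0.74), Scd2 (0.55) and Sqle (0.53), a share near that of all genes (1203 of 13422).

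**Figure D3:**
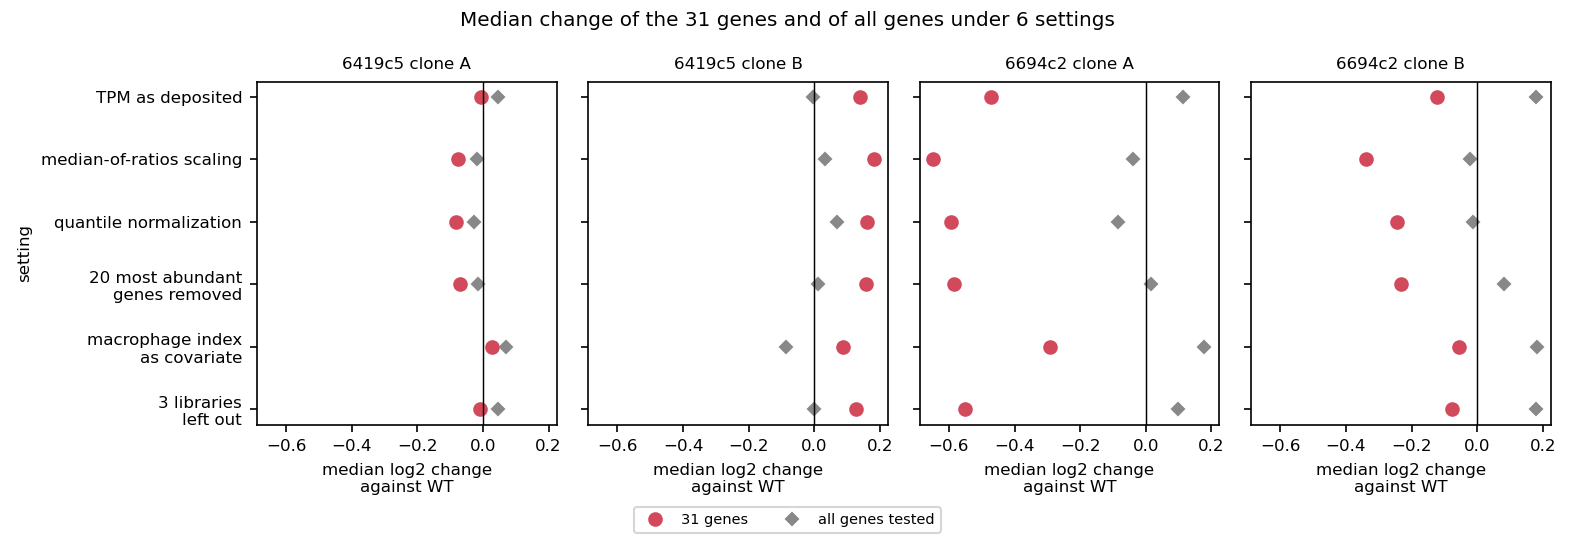
Each panel gives, for 1 clone against its WT, the median log2 change (horizontal axis) of the 31 genes (red circles) and of all genes tested (grey diamonds) under 6 settings (vertical axis). In 6694c2 the circles lie left of the diamonds in every row, farther in clone A (-0.47 as deposited) than in clone B (-0.12), and in 6419c5 clone A they lie close together.

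Summed macrophage, fibroblast, neutrophil, endothelial and T and NK cell markers were above the WT range in every clone A library of 6694c2. In 6419c5 clone A this held for the fibroblast, endothelial and T and NK cell markers, while the macrophage and neutrophil sums overlapped those of WT. The macrophage index, the mean log2(TPM + 1) of 10 macrophage genes, averaged 5.11 ± 1.46 (SD, n = 3) for 6694c2 WT, 7.67 ± 0.312 for its clone A and 5.56 ± 1.56 for its clone B. The macrophage genes summed to 295 to 1887 TPM for WT, 3432 to 6445 for clone A and 549 to 3525 for clone B. Sums of the 8 fibroblast markers were 146 to 249, 642 to 948 and 102 to 813 TPM in that order. Those of the 5 neutrophil markers were 9.80 to 17.6, 82.4 to 217 and 27.7 to 36.0 TPM, and those of the 6 endothelial markers 2.45 to 3.25, 16.5 to 143 and 5.98 to 10.8 TPM. The T and NK cell markers, 5 of 6 in the table, summed to 1.04 to 2.05, 11.3 to 18 and 5.81 to 10.4 TPM. Markers of sebaceous and other skin epithelial cells (7 genes) had lower sums in the 6694c2 knockouts. They were 112 to 133 TPM for WT, 55.8 to 57.9 for clone A and 36.2 to 39.3 for clone B. In 6419c5 these skin marker sums were 8.38 to 9.24 TPM for WT, 6.27 to 54.1 for clone A and 5.02 to 8.72 for clone B. For 6419c5 the index averaged 7.15 ± 1.24 for WT, 8.08 ± 0.951 for clone A and 4.29 ± 0.380 for clone B, the clone with the highest mean sterol sum of that line. Fibroblast sums there were 274 to 560.4 TPM for WT, 917 to 952 for clone A and 248 to 279 for clone B, and endothelial sums 3.94 to 7.38, 13.4 to 17.0 and 4.59 to 5.40 TPM. The T and NK cell sums were 1.11 to 1.96, 3.46 to 5.71 and 1.93 to 3.90 TPM, and the neutrophil sums 22.6 to 37.0, 30.2 to 45.8 and 7.40 to 20.8 TPM. No member was called in 6419c5 clone A against WT. The 6 ductal tumor markers summed to 6506 to 8235 TPM for 6694c2 WT, 5379 to 5934 for clone A and 5701 to 7353 for clone B, so that clone A lay below the WT range. In 6419c5 these sums were 10188 to 12183, 9696 to 10763 and 9291 to 10113 TPM. In bulk libraries fewer tumor cells and less of these transcripts per tumor cell cannot be told apart.

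Single libraries place the index beside the sterol genes. Clone B replicate 3 of 6694c2 had an index of 7.36, near the clone A values of 7.43 to 8.02, and a sterol sum of 939 TPM, while clone A had 641 to 834 TPM. Replicates 1 and 2 of clone B had indices of 4.63 and 4.70 and sterol sums of 1015 and 1035 TPM. In 6419c5 clone A, replicate 1 had the lowest index of its group, 7.01, and the highest sterol sum, 929 TPM, where replicates 2 and 3 had 666 and 696 TPM. The same replicate 1 also had the highest skin marker sum of its group, 54.1 TPM against 6.27 and 10.8 TPM. The part of skin cell RNA in its sterol sum was not tested. In 6694c2 clone A the order of index and sterol sum was the other way: replicate 1 had both the highest index, 8.02, and the highest sterol sum, 834 TPM, against 641 and 647 TPM. In 6694c2 WT the lowest index, 3.64, came with 1065 TPM, the index of 5.12 with the highest sum, 1151 TPM, and the index of 6.57 with 958 TPM. With the index as a covariate the clone A count of 6694c2 went from 13 to 7 lower and its median from -0.47 to -0.29. Over all 13422 genes tested the count lower also fell, from 941 to 550, while the median went from 0.11 to 0.18. The 7 members were Pmvk (-0.88), Fdps (-0.81), Fdft1 (-0.51), Tm7sf2 (-0.93), Dhcr7 (-0.77), Srebf1 (-0.36) and Srebf2 (-0.71). The calls lost were those of Hmgcs1 (from -0.92 to -0.49), Sqle (-0.60 to -0.35), Fasn (-0.53 to -0.36), Scd2 (-0.47 to -0.29), Elovl6 (-0.74 to -0.38) and Insig1, whose change stayed nearly as large (-0.59 to -0.54, limma adjusted p = 0.0923). In 6419c5 the same fit left no member called in clone B against WT or clone A. Over all genes it gave 1278 lower and 891 higher against WT, and 938 lower and 401 higher against clone A. Scd2 in clone B against WT went from 0.51 to 0.31 (limma adjusted p = 0.192). Without 3 libraries whose markers of other cells stood apart (replicate 3 of 6419c5 WT and, in 6694c2, clone A replicate 1 with clone B replicate 3) the counts were 9 lower in the 6694c2 knockouts and 14 in its clone A. Beside them, 717 and 945 of all 13422 genes were lower.

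**Figure D4:**
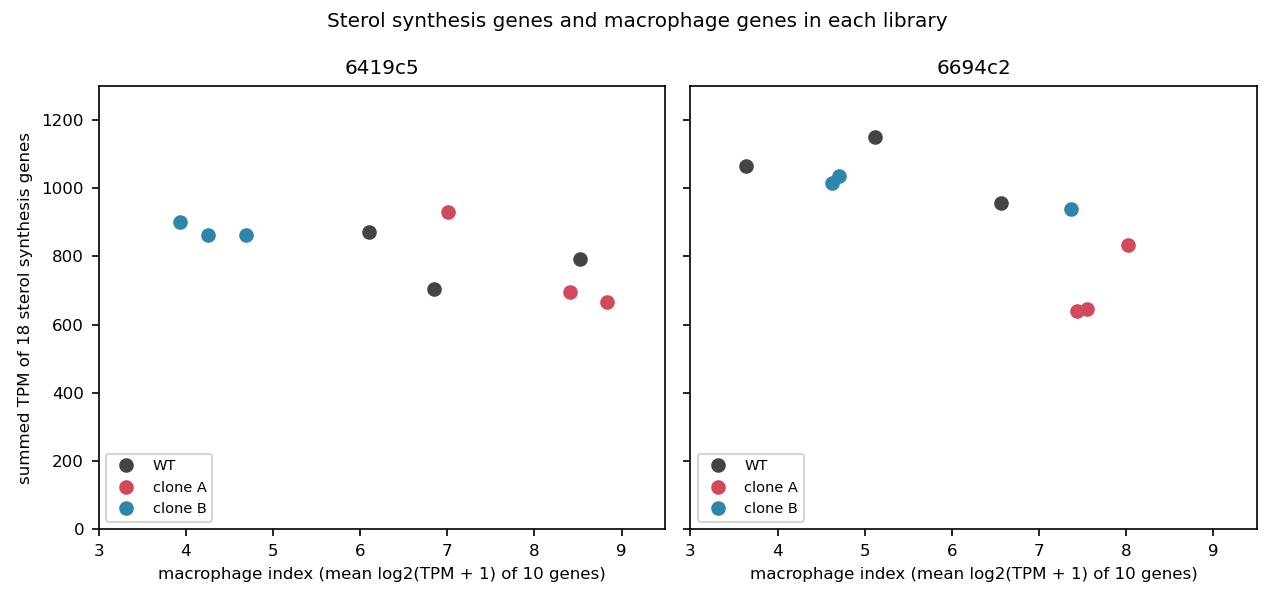
Each point is 1 library of 6419c5 (left) or 6694c2 (right), with the macrophage index on the horizontal axis and the summed TPM of the 18 sterol synthesis genes on the vertical axis, for WT (dark grey), clone A (red) and clone B (blue). In 6694c2 the clone A points lie at 641 to 834 TPM and an index of 7.43 to 8.02, and clone B replicate 3 lies at 939 TPM and 7.36.

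The genes around the pathway were counted from lists of related functions. Among 15 tested further genes of sterol and lipid synthesis or SREBP processing, Acat1, the mitochondrial thiolase, rose in 6694c2 (0.37, limma adjusted p = 0.0479). There 14.7% of all genes rose. In 6419c5 1 gene of the list rose (3.97% of all genes did), the desaturase gene Fads1 (0.24). Of 10 genes of sterol efflux and LXR targets, only Soat1, which esterifies cholesterol for storage, rose in 6694c2 (0.44), a share no higher than the 14.7% of all genes. None was called in 6419c5.

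Of 10 lipid uptake genes 4 rose in 6694c2 (14.7% of all genes did). They were the fatty acid carriers Cd36 (2.05), Fabp4 (1.72) and Fabp5 (1.71) and the lipoprotein lipase Lpl (1.54), all of which macrophages also express. Cd36 was at 0.816 ± 0.105 TPM in WT, 16.6 ± 12.5 for clone A and 3.29 ± 2.94 for clone B, an order in which the macrophage index also ran, and the part of macrophage RNA in it was not tested. In 6419c5 2 of the 10 fell (3.40% of all genes did), the lipoprotein receptor gene Vldlr (-1.29) and the fatty acid transporter gene Slc27a1 (-0.46). Slc27a1 was at 34.9 ± 2.78 TPM (SD, n = 3) for WT, 39.0 ± 5.28 for clone A and 16.2 ± 1.53 for clone B, so its lower mean came from clone B. Vldlr was at 5.95 ± 1.21 TPM in 6419c5 WT, 1.47 ± 0.410 for clone A and 2.28 ± 0.457 for clone B. Of 12 tested genes of fatty acid oxidation 4 rose in 6694c2 and 0 fell: Hadhb (0.51), Cpt1a, which admits fatty acids to mitochondria (0.48), Decr1 (0.46) and Slc25a20 (0.37). These rises stand beside 14.7% of all genes called higher there. In 6419c5 3 of the 12 rose for the mean of the clones (3.97% of all genes did) and 0 fell. Those named are Acadm (0.56) and Hadh (0.35), both dehydrogenases. By clone, 0 of the 12 were called in clone A and 6 were higher in clone B (7.97% of all genes were). Acadm was at 162 ± 26.6 TPM for WT, 148 ± 4.31 for clone A and 382 ± 69.8 for clone B. Of 8 glycerolipid genes, Dgat2, which makes triglyceride, fell in 6694c2 (-0.83, SE 0.20, limma adjusted p = 0.00823), where 5.79% of all genes fell. Pnpla2, which breaks it down, rose (0.33), where 14.7% of all genes rose. None of the 8 was called in 6419c5.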

How the data were processed

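The deposited table holds TPM for 24493 genes in 18 libraries, made by the authors with Salmon on build mm10, per the submitters' processing notes; the Salmon version and annotation are not given in the sources used here. The table's name mentions a batch, and whether values were adjusted for it is unknown. Each column sums to 1e+06, so depth is unknown. The analysis used log2(TPM + 1) of 13422 genes, those whose mean reached 1 TPM. Group means of all 6 groups entered a single limma fit (version 3.58.1, R 4.3.3; 12 residual degrees of freedom), with a mean-variance trend, two-sided tests and Benjamini-Hochberg adjustment over all genes tested in each of 10 contrasts, at a threshold of 0.05. Tables were made in Python 3.11.15, and the fit was tested on simulated data. The 31 genes, the lists of related functions and the marker lists were chosen with earlier results of these data known. All 31 are named; values in every library are given for genes called in the knockouts of a line and for Srebf1, Srebf2, Scd1 and Scd2, and up to 4 called genes are named per related list. Gene positions are from GENCODE M21 (GRCm38, the same assembly as mm10). Alternatives were other pseudocounts, filters, scalings, covariates and left-out libraries. Some genes of the pathway are not reported here.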

Additional observations from a re-analysis of the deposited data

Results flagged for a closer look

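For 3 of the 31 genes the knockout effect differed between the lines by limma's test of the difference itself (6694c2 minus 6419c5). The difference was -0.55 for Fdft1 (adjusted p = 0.0349), -0.45 for Srebf2 (limma adjusted p = 0.0322) and -0.52 for Scd2 (limma adjusted p = 0.0485). None of the 3 kept its call in every alternative: with the macrophage index as a covariate the differences were -0.47, -0.38 and -0.35 (limma adjusted p = 0.0949, 0.0956 and 0.166). With median-of-ratios scaling they were -0.73, -0.64 and -0.71, all called.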

How the results depend on the processing

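Of 942 alternative values of the 53 called changes of single genes, 770 kept their call, 172 lost it and 0 changed direction. In the 6694c2 knockouts Dhcr7, Srebf2 and Fasn kept their call under all 20 alternatives and Hmgcs1 under 9. With median-of-ratios scaling the counts of called members were 16 lower in the 6694c2 knockouts (median -0.42), 9 lower for the difference between lines (median -0.47), 3 higher in 6419c5 clone B, 0 lower and 8 higher in 6419c5 clone B against clone A, 21 lower in 6694c2 clone A (median -0.65) and 6 in clone B (median -0.34), and the WT median was 0.59. Quantile normalization gave 17 (median -0.41), 7 (median -0.45), 3, 0 and 7 (median 0.28), 20 and 3, and 0.54 in the same order. Over all 13422 genes median-of-ratios scaling gave 1792, 814, 1203, 1818 and 1666, 1839 and 1111 in that order. Quantile normalization gave 1614, 763, 1421, 1635 and 1985, 2053 and 885 over all genes. Removing the 20 most abundant genes gave 13, 7, 2, 10 higher, 20 and 3, beside 1181, 519, 1153, 1465, 1455 and 733 of all 13402 genes. With only the libraries of a line the 6694c2 counts were 5 lower, 0 lower in clone B and 2 higher in clone B against clone A. Beside them, 600, 386 and 294 of all 13422 genes were called, fewer than the 777, 529 and 707 of the main fit. Without a filter the last member count was 2, beside 677 of all 20426 genes. The macrophage covariate gave 0 higher in 6419c5 clone B, 0 lower and 0 higher in its clone B against clone A, 7 lower in 6694c2 clone A (median -0.29), 2 in clone B, 1 higher in clone B against clone A, and 2 lower between WT groups. Over all 13422 genes that fit gave 891, 938 and 401, 550, 699, 180 and 4453 in the same order. Without the 3 libraries that stood apart 6419c5 clone B had 0 higher, beside 794 of all 13422 genes. The causes of these shifts were not tested.

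Leaving out single libraries gave 3 to 12 lower and 0 to 1 higher in the 6694c2 knockouts (3 without WT replicate 1), 0 to 5 lower for the difference between lines (medians -0.43 to -0.24), 1 to 3 higher in 6419c5 clone B, 0 to 1 lower and 1 to 8 higher in its clone B against clone A, 8 to 16 lower and 0 to 1 higher in 6694c2 clone A, 0 to 3 lower and 0 to 1 higher in clone B, 1 to 11 higher in its clone B against clone A, and 1 to 2 lower between WT groups. Over all 13422 genes these fits gave 579 to 790 lower and 1382 to 2026 higher in the 6694c2 knockouts. The difference between lines had 228 to 470 lower. In 6419c5 clone B had 683 to 1014 higher, and against clone A 1760 to 2490 lower and 645 to 998 higher. In 6694c2 clone A had 594 to 904 lower and 1251 to 1774 higher, and clone B 367 to 620 and 780 to 1972. There clone B against clone A had 177 to 848 higher. Between WT groups 3699 to 4362 were lower. The 6694c2 clone B median of the members ran from -0.15 to 0.00. TPM carry no depth, so counting error could not be given.

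Replicate numbers did not pair the samples: same-numbered libraries of different groups had deviations correlated at -0.39 to 0.48 (median -0.04, 45 pairs). With the number as a replicate block 6419c5 clone B had 3 genes higher in place of 1, beside 993 of all 13422 genes. The 6694c2 counts were 8 lower for the knockouts and 14 for clone A, beside 741 and 896 of all genes.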

Other observations

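Fatty acid oxidation genes ran against the synthesis genes between the WT groups: 10 of 12 tested were called lower in 6694c2 WT than in 6419c5 WT and 0 higher, with a median of -0.56 beside -0.22 over all genes, of which 32.2% were called lower. Acadm, the medium-chain acyl-CoA dehydrogenase, was at 162 ± 26.6 TPM in 6419c5 WT and 57.6 ± 1.04 in 6694c2 WT (SD, n = 3). In 6419c5 clone B it was at 382 ± 69.8 TPM, and 6 of the 12 genes were called higher in that clone against WT (7.97% of all genes were) and 0 lower. Of 10 genes of sterol efflux and LXR targets, 6 were called lower and 1 higher in 6419c5 clone B against clone A (18.9% and 7.38% of all genes), where the macrophage index was 4.29 ± 0.380 and 8.08 ± 0.951; Abcg1, a sterol exporter gene that macrophages also express, was at 0.652 ± 0.307 and 8.37 ± 3.54 TPM.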
